A study of Mus musculus with 12 samples.

Results

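The mitochondrial ribosomal protein genes were followed through RNA-seq of haematopoietic stem cells (HSCs) with and without the Runx1 deletion. Members were all rows of the deposited gene tables whose symbol is Mrpl or Mrps followed by a number and at most 1 letter. The rule used no measured value and found 77 genes among 35869 rows, and all 77 passed the filter on low counts, which left 19395 genes to test. Bone marrow HSCs had been sorted by FACS into a fraction with surface CD41 (CD41pos) and one without (CD41neg), CD41 being the integrin chain encoded by Itga2b. Every mouse was RUNX1f/f, that is, it carried floxed alleles of the transcription factor gene Runx1. Mice labelled KO were MxCre1+/-,RUNX1f/f and those labelled WT were MxCre1-/-,RUNX1f/f, so the WT mice also carry the floxed alleles and lack only the recombinase. The recombinase is driven by the interferon-responsive Mx1 promoter, which is active in many cell types besides HSCs. WT and KO mice alike had been given poly(I:C), which triggers interferon, in 4 injections and were studied 4 weeks after injection. The labels give neither strain nor age. Each of the 4 groups had 3 libraries: CD41pos WT 1, 3 and 4, CD41neg WT 2, 3 and 4, CD41pos KO 1, 2 and 3 and CD41neg KO 1, 2 and 3.

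Mitochondria carry their own ribosome, which translates the few mRNAs of the mitochondrial genome, all of them for subunits of the respiratory chain and ATP synthase. Its RNAs come from mitochondrial DNA, whereas all of its proteins are encoded in the nucleus, made in the cytosol and imported, so the nuclear genes described here supply the protein part of the particle. Mrpl genes encode proteins of the large subunit, where peptide bonds form, and Mrps genes mostly proteins of the small subunit, where mRNA is read. HSCs are known for low respiration and a slow rate of protein synthesis.

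Library totals ran from 44108035 to 58946457 counts, and the lowest count of a member in any library was 1331. Within WT, 4 libraries (CD41pos WT 1 and 4, CD41neg WT 2 and 4) stood apart in the immediate early gene Nr4a1, with 18.6 to 27.7 CPM (counts scaled to the library total after TMM normalization) against 237 to 396 CPM in the other 8. WT libraries carry numbers up to 10 and KO libraries numbers from 13, and this order and the genotype cannot be told apart. The gene total of Runx1 was 149 ± 9.23 CPM in CD41pos WT and 326 ± 55.9 CPM in CD41pos KO libraries (mean ± SD, n = 3), and 80.1 ± 12.9 CPM in CD41neg WT and 164 ± 7.04 CPM in CD41neg KO libraries. Itga2b was higher in the CD41pos gate of both genotypes, 621 ± 65.9 against 103 ± 47.0 CPM in WT and 1118 ± 131 against 247 ± 30.2 CPM in KO. The total of Runx1 includes exons outside the deleted part, so it does not check the deletion. The HSC markers Kit, Hlf, Mecom, Procr, Fgd5, Ly6a and Slamf1 were present in every library. CD41pos WT 3 was low in several of them against CD41pos WT 1 and 4, with 184 CPM of Kit against 571 and 640, 23.5 CPM of Mecom against 74.8 and 84.8, 18.1 CPM of Procr against 35.2 and 41.3, and 6.95 CPM of Fgd5 against 29.9 and 30.7. CD41neg KO 2 was also low in several markers against CD41neg KO 1 and 3. It had 21.0 CPM of Mecom against 95.4 and 99.4, and 17.0 CPM of Procr against 73.3 and 73.0. Fgd5 was at 5.11 CPM there against 30.6 and 35.2, whereas Slamf1 was higher, at 92.5 CPM against 62.6 and 66.0. CD41pos KO 2 had 6.24 CPM of Procr against 22.7 and 19.9 in CD41pos KO 1 and 3. The part of these differences in the levels of the ribosomal genes was not tested. In bulk libraries fewer cells of a type and less RNA per cell cannot be told apart. The labels do not say that each library came from a separate mouse, so p-values measure the spread between these libraries.

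Promoter windows of 300 bases around the RefSeq start were found for 68 of the 77 genes (GRCm38.p6, the mm10 assembly). They are shown because members moved together across libraries, as described below. Motifs searched on both strands were the NRF1 consensus, which is the run of capitals in Mrpl44 below with any base at the sixth place, CCGGAAGT for the ETS family that includes GABPA, AAGATGGC for YY1, and TGTGGT for RUNX factors. NRF1 and GABPA are known regulators of nuclear genes for mitochondrial proteins. An NRF1 match stood in 19.1% of member windows, in 8.46% of the windows of tested genes and in 4.78% of all 27025 windows. The shares in the same order were 16.2%, 6.73% and 4.0% for an ETS match and 17.6%, 3.92% and 2.88% for a YY1 match. At least 1 of these 3 motifs was found in 48.5% of member windows, in 10.8% of all windows and in 17.6% of the windows of tested genes. The RUNX motif was found in 11.8% of member windows, 13.7% of the windows of tested genes and 16.9% of all windows. Median GC content was 58.2% in member windows and 52.7% in all windows. The 150 bases before the start are given for 4 members that passed the test in a comparison below, with ETS or NRF1 matches in capitals.
Mrpl2, chr17:46646071-46646220, plus strand: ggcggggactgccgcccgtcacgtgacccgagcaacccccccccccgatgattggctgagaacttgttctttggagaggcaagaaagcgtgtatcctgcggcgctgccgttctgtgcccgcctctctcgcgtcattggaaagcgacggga
Mrps26, chr2:130563607-130563756, plus strand: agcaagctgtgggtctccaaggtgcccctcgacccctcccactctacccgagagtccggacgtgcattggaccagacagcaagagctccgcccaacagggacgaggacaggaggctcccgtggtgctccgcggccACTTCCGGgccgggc
Mrpl44, chr1:79775868-79776017, plus strand: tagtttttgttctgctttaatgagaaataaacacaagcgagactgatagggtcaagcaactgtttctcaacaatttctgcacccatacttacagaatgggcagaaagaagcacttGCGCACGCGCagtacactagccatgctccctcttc
Mrpl50, chr4:49521084-49521233, minus strand: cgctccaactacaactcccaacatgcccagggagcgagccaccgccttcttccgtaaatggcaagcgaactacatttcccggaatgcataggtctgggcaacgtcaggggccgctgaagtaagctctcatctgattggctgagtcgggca
The capitals in Mrps26 are an ETS match on the opposite strand, 15 to 8 bases before the start, and Mrps26 also has a pair of NRF1 matches that cross or follow the start. The capitals in Mrpl44 are an NRF1 match 35 to 26 bases before the start. Mrpl2 and Mrpl50 held none of the 4 motifs in their windows. A match says only that these letters are present.

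Most members were well expressed. Median TPM (transcripts scaled to the library, a level per length) over the 77 genes was 129, and 43 genes had a mean above 100 TPM. The highest mean levels were those of Mrpl52 (695 TPM), Mrpl12 (649 TPM), Mrpl33 (530 TPM), Mrpl34 (513 TPM) and Mrpl54 (459 TPM). The lowest were Mrpl1 (14.3 TPM), Mrpl55 (17.6 TPM), Mrps10 (21.4 TPM), Mrps23 (27.9 TPM) and Mrpl39 (32.6 TPM). These ranks depend on the gene lengths behind the deposited TPM. The length implied by counts over TPM was over 1.5 times longer than the GENCODE exon length in 18 members and over 1.5 times shorter in 25. For all genes its median ratio to the GENCODE length went from 1.0 with 1 annotated transcript to 2.78 with 8 or more. Per 1000 GENCODE exon bases Mrpl34 ranked 1, Mrpl12 ranked 3 and Mrpl54 ranked 6, whereas Mrpl33 ranked 70, Mrpl55 ranked 22 and Mrps23 ranked 26. Fold changes do not use the length, since counts over TPM within a member varied by at most 0.54% between libraries.

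Most members were high and low in the same libraries, and CD41pos WT 3 and CD41neg WT 4 stood above the rest. The mean log2 CPM of the 77 genes was 6.25, 6.93 and 6.18 in CD41pos WT 1, 3 and 4 and 6.24, 6.35 and 6.78 in CD41neg WT 2, 3 and 4. In the 6 KO libraries it was 6.09 to 6.26. Member counts made up 0.990% of the library in CD41pos WT 3 and 0.880% in CD41neg WT 4, against 0.543% to 0.676% in the other 10. The 2 high libraries are thus not the pair with the same WT number, and only CD41neg WT 4 is among the 4 that stood apart in Nr4a1.

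**Figure D1:**
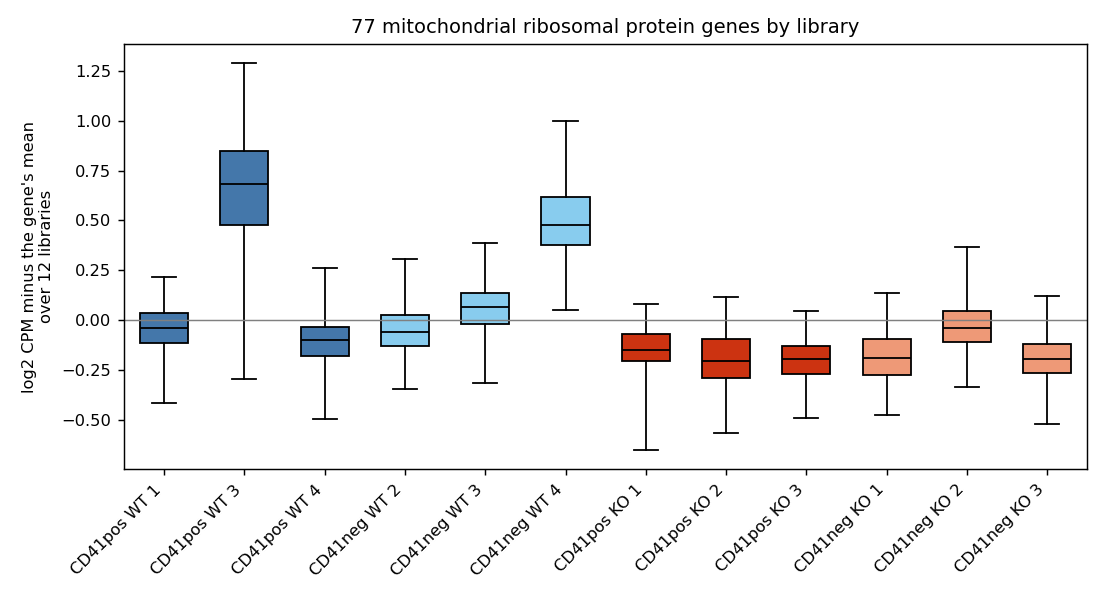
Level of the 77 genes in each library as log2 CPM minus the mean of the same gene over 12 libraries: the box spans the quartiles, the line is the median and whiskers reach the lowest and highest gene. CD41pos WT 3 and CD41neg WT 4 lie above all other libraries.

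In CD41pos WT 3, 76 of the 77 members were above the mean of CD41pos WT 1 and 4, with a median difference of 0.76 (log2), against 0.0087 over all genes tested. In CD41neg WT 4 all 77 were above the mean of CD41neg WT 2 and 3, with a median difference of 0.49, against -0.0047. Groups with related functions stood high in the same 2 libraries: the mean log2 CPM of 84 cytosolic ribosomal protein genes was 8.67 and 8.28 there and 7.59 to 7.83 elsewhere. Nuclear genes for respiratory chain and ATP synthase subunits (80 tested) had 7.63 and 7.31 there and 6.62 to 6.92 elsewhere. These 2 libraries were chosen after their values were seen, and the counts of members called are also given without them. The part of RNA quality or of other cells in these levels was not tested.

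**Figure D2:**
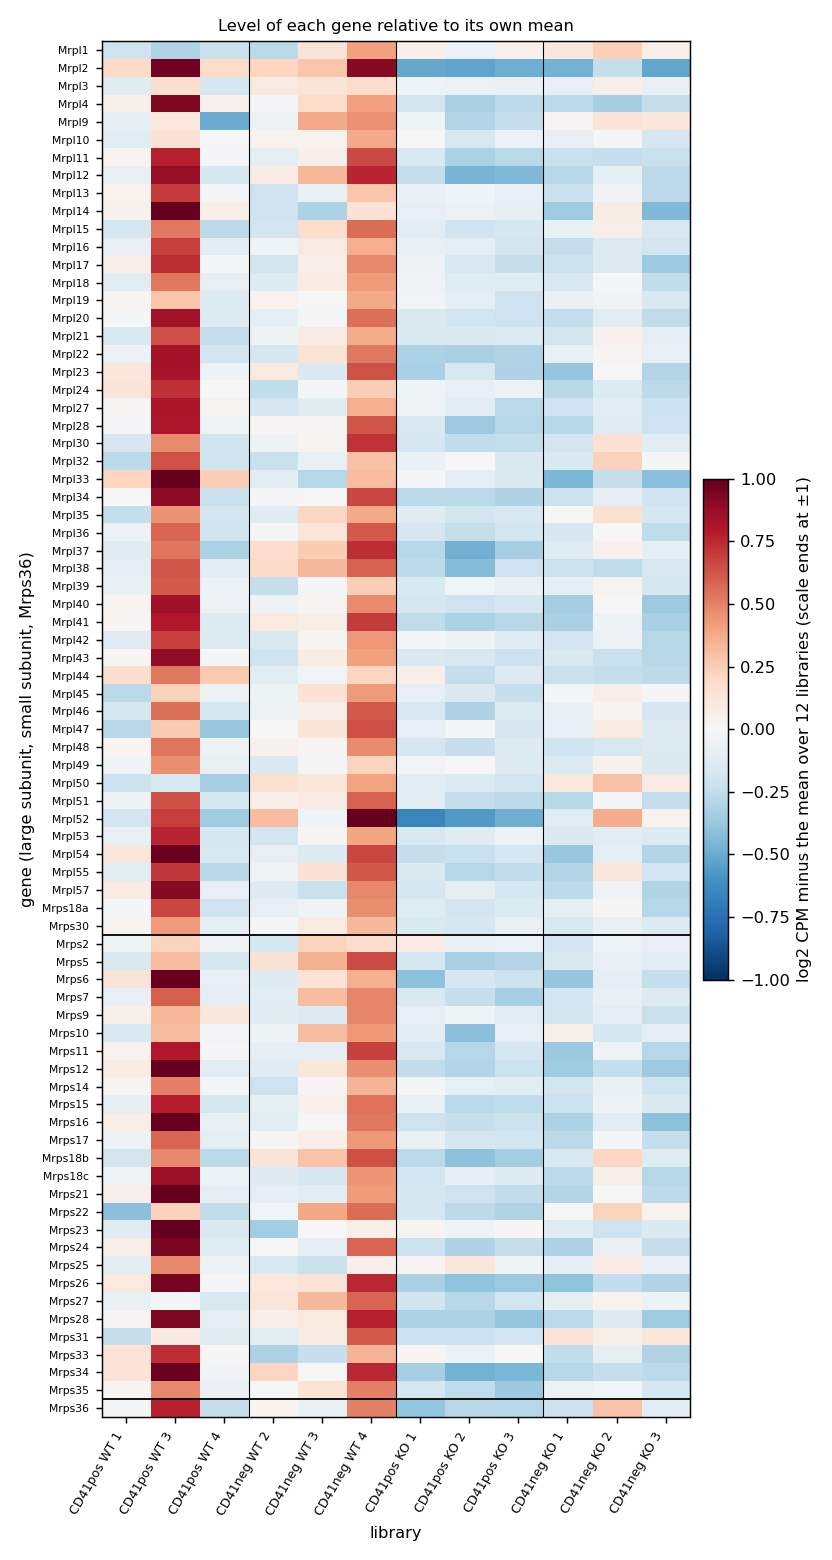
Log2 CPM of each gene minus its own mean over 12 libraries, with colours clipped at 1 above and below; the horizontal lines divide the 50 genes of the large subunit, the 26 of the small subunit and Mrps36. The columns of CD41pos WT 3 and CD41neg WT 4 are red for nearly all genes, while Mrpl1 and Mrpl50 do not share the column of CD41pos WT 3.

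Correlation of each member with the mean of the other 76 over the 12 libraries had a median of 0.93, and 75 of 77 members were above 0.5; the 12 points share the 2 high libraries. The exceptions were Mrpl1, whose protein forms the mobile L1 stalk, at 0.02 and Mrpl50, a large subunit protein with no bacterial counterpart, at 0.24. Over the 6 KO libraries alone, where neither high library enters, the median was 0.66 and 53 of 77 were above 0.5. These points share CD41neg KO 2, whose mean log2 CPM of members was 6.26, against 6.09 to 6.14 in the other KO libraries. In CD41neg KO 2, 70 of the 77 members were above the mean of CD41neg KO 1 and 3, with a median difference of 0.16. Such correlations were not computed for other genes, so the counts above 0.5 cannot be set against a share of all genes. The widest spread over the 12 libraries was that of Mrpl2, Mrpl52 and Mrps12.

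In CD41pos HSCs the members were mostly lower in KO than in WT. Of the 77 genes 5 fell and none rose (edgeR's quasi-likelihood test, Benjamini-Hochberg adjusted p below 0.05), that is Mrpl2, Mrps34, Mrps26, Mrpl4 and Mrpl44. Among all genes tested 7.27% were called lower and 9.79% higher, 17.1% in all. The median log2 fold change of members was -0.39, with 74 of 77 below 0, against -0.08 for all genes tested, of which 54.7% were below 0. For 42 members all KO libraries lay below all WT libraries, a pattern shown by 22.4% of all genes, and Mrpl1 alone showed the opposite. With the 2 high libraries left out these counts were 42 lower, against 29.5% of all genes, and 8 higher, against 27.6%. At an unadjusted p below 0.05 there were 29 of the 77 members and 6863 of the 19395 genes tested.

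Mrpl2, the counterpart of the bacterial protein L2 near the site of peptide bond formation, showed the largest difference. Mrpl2 (chr17:46646229-46650139 of mm10, plus strand) measured 103.9, 178.7 and 103.4 CPM in CD41pos WT 1, 3 and 4, and 63.9, 63.0 and 64.6 CPM in CD41pos KO 1, 2 and 3. Every KO library was below every WT library and the KO libraries were close together, whereas WT 3 was far above WT 1 and 4. The log2 fold change was -1.01 ± 0.23 (SE, n = 3 per group; edgeR adjusted p = 0.0134). Without CD41pos WT 3 and CD41neg WT 4 it was -0.68 (adjusted p = 0.00144), so the gene was still called and the difference was smaller. It lost the call without CD41pos KO 2 (adjusted p = 0.0574) or CD41pos KO 3 (adjusted p = 0.0502).

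Mrps34 and Mrps26 encode small subunit proteins with no bacterial counterpart. Mrps34 (chr17:24895116-24897502, plus strand) measured 91.2, 164.2 and 81.3 CPM in CD41pos WT 1, 3 and 4 and 65.9, 59.9 and 60.4 CPM in CD41pos KO 1, 2 and 3, with no overlap of the groups. Its log2 fold change was -0.85 ± 0.25 (edgeR adjusted p = 0.0341). Exons of Nme3 on the same strand cover 37.0% of its exon length and exons of Mapk8ip3 on the other strand 63.4%, and the library kit does not mark the strand, so its reads cannot be fully told apart from theirs. Mrps26 (chr2:130563742-130568695, plus strand) measured 122.7, 222.2 and 113.5 CPM in WT against 91.3, 86.6 and 89.1 CPM in KO, again without overlap. The log2 fold change of Mrps26 was -0.78 ± 0.24 (edgeR adjusted p = 0.0425). Both remained called without the 2 high libraries, at -0.45 (adjusted p = 0.00876) for Mrps34 and -0.39 (adjusted p = 0.00719) for Mrps26.

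Mrpl4, counterpart of bacterial L4, and Mrpl44, a large subunit protein with a ribonuclease III fold, passed narrowly. Mrpl4 (chr9:21002738-21008839, plus strand) measured 137.3, 254.3 and 136.8 CPM in CD41pos WT 1, 3 and 4 and 116.7, 106.0 and 110.8 CPM in KO, so the groups did not overlap. Its log2 fold change was -0.66 ± 0.21 (edgeR adjusted p = 0.0482), and -0.28 (adjusted p = 0.0346) without the 2 high libraries. Mrpl44 (chr1:79776018-79781445, plus strand) measured 73.8, 95.1 and 79.0 CPM in WT and 68.2, 55.9 and 60.2 CPM in KO, with KO 1 only just under WT 1. Its log2 fold change was -0.43 ± 0.14 (edgeR adjusted p = 0.0493), and without the 2 high libraries -0.30 (adjusted p = 0.0577), which ended the call. Exons of Wdfy1 on the other strand overlap 7.7% of the Mrpl44 exon length.

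**Figure D3:**
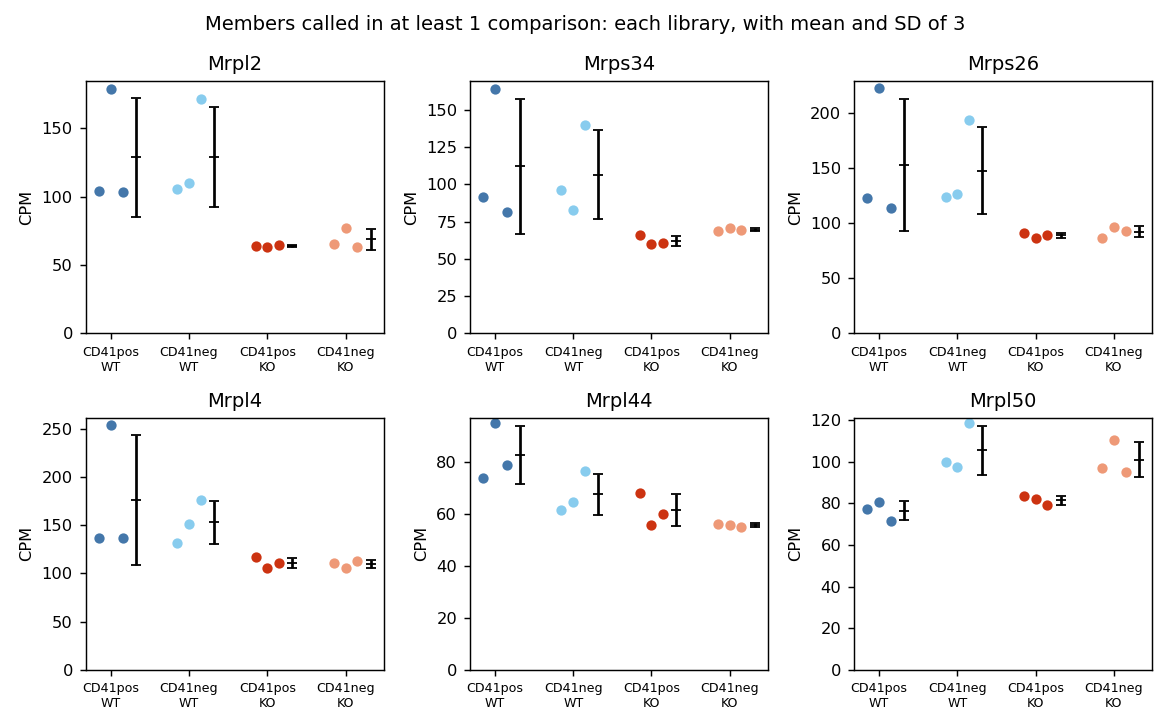
CPM of the 6 members that passed the test in at least 1 comparison: each point is a library in the order of the labels, and the bar beside each group is the mean and SD of 3. For Mrpl2, Mrps34, Mrps26 and Mrpl4 the middle CD41pos WT point (WT 3) is highest and the CD41pos KO points lie below all CD41pos WT points.

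The number of calls in CD41pos HSCs rested on single libraries. It was 19 without CD41pos WT 4, 6 without CD41pos WT 1 or CD41neg WT 4, 3 without CD41neg WT 3, and 2 without CD41neg WT 2, CD41neg KO 1 or CD41neg KO 2. It was 1 without CD41pos WT 3, CD41pos KO 1 or CD41neg KO 3, and 0 without CD41pos KO 2 or CD41pos KO 3. Without CD41pos WT 3 and CD41neg WT 4 together 5 members were called lower, the median was -0.09 and 58 of 77 were below 0. The shares of all genes called in these fits are not given here. Without the 4 WT libraries that stood apart, which leaves CD41pos WT 3 as the only WT library of the gate, the median was -0.74. That fit assumes that the lone library varies like the other groups. On log2(TPM + 1) with limma the members' median was -0.13 and that of all genes 0.05.

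Among members that did not pass, the lowest was Mrps12, counterpart of the bacterial decoding protein S12, at -0.81 ± 0.29 (edgeR adjusted p = 0.0748). Mrps12 measured 204.6 CPM in CD41pos WT 3, 77.3 and 88.1 CPM in the other CD41pos WT libraries and 68.3 to 72.3 CPM in KO. The highest were Mrpl1 at 0.25 ± 0.16 (adjusted p = 0.270), Mrpl50 at 0.09 ± 0.12 and Mrpl47, a tunnel exit protein, at 0.02 ± 0.20. Mrpl1 measured 35.9, 33.7 and 35.6 CPM in WT and 43.1, 39.7 and 42.8 CPM in KO, so it did not follow the high WT library.

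In CD41neg HSCs the direction was alike, and Mrpl2 alone fell, while none of the 77 rose. Among all genes 3.97% were called lower and 3.85% higher, 7.82% in all. The median log2 fold change of members was -0.31, with 74 of 77 below 0, against -0.03 over all genes, of which 51.8% were below 0. For 26 members all KO libraries lay below all WT libraries, against 17% of all genes, and none lay above. Without the 2 high libraries 26 lay below, against 21.3% of all genes, and 1 above. An unadjusted p below 0.05 was reached by 11 of the 77 members and by 5108 of the 19395 genes tested. Mrpl2 measured 105.6, 109.8 and 171.2 CPM in CD41neg WT 2, 3 and 4 and 65.3, 77.2 and 63.4 CPM in CD41neg KO 1, 2 and 3. The groups did not overlap, and WT 4 was the highest. The log2 fold change of Mrpl2 was -0.91 ± 0.23 (edgeR adjusted p = 0.0339) and, without the 2 high libraries, -0.65 (adjusted p = 0.00415).

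Next in CD41neg HSCs were Mrps26 at -0.68 ± 0.24 (edgeR adjusted p = 0.0957) and Mrpl12, the stalk protein counterpart of L7/L12, at -0.63 ± 0.25 (adjusted p = 0.136). Mrpl12 measured 197.8, 236.4 and 319.3 CPM in CD41neg WT and 154.3, 176.8 and 156.8 CPM in CD41neg KO, with no overlap. At the other end stood Mrps25 at 0.08 ± 0.15, Mrpl1 at 0.02 ± 0.16 and Mrpl32, a protein cleaved by the mitochondrial m-AAA protease before assembly, at 0.01 ± 0.23. The count of calls was 12 without CD41pos WT 3, which enters here only through the scaling and the shared estimate of spread, and 2 without CD41neg WT 2. It was 0 without CD41neg WT 4 or without any 1 of the 6 KO libraries, and 8 without the 2 high libraries, with a median of -0.13 and 66 of 77 below 0. Without the 4 WT libraries that stood apart, which leaves CD41neg WT 3 as the only WT library of the gate, the median was -0.18.

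**Figure D4:**
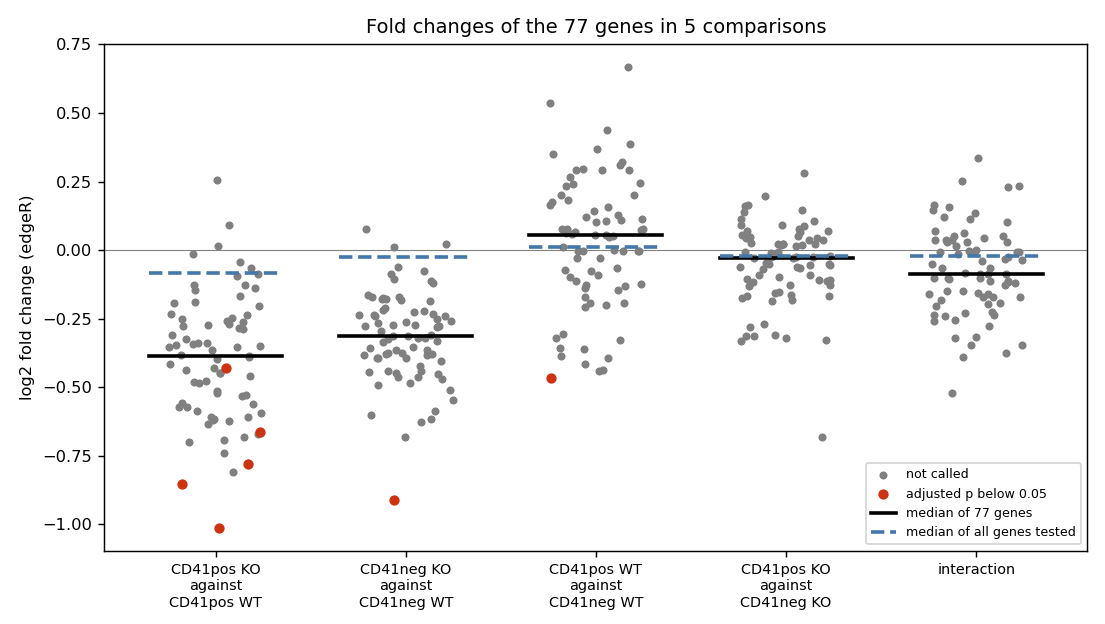
Log2 fold changes of the 77 genes in the 5 comparisons (edgeR): each point is a gene, red where its adjusted p was below 0.05, with the median of the 77 genes as a solid line and that of all genes tested as a dashed line. Both KO against WT columns lie mostly below 0, with medians of -0.39 and -0.31, while the other 3 columns are centred near 0.

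The shares of members called in each ribosomal subunit were near that of all genes (7.27% lower). In CD41pos HSCs 3 of 50 large subunit members fell (Mrpl2, Mrpl4 and Mrpl44) with a median of -0.37, and 2 of 26 small subunit members (Mrps34 and Mrps26) with a median of -0.40. In CD41neg HSCs these medians were -0.30 and -0.34, with 1 and 0 called, against 3.97% of all genes, while DESeq2 called 2 and 3. Leaving out the 2 high libraries gave 2 and 3 called lower with medians of -0.07 and -0.09 in CD41pos HSCs, and 4 and 4 with medians of -0.12 and -0.15 in CD41neg HSCs. Mrps30 and Mrps18a were counted with the large subunit, where their proteins sit despite the names. Mrps36, whose protein is known as a component of the oxoglutarate dehydrogenase complex, was counted with neither and measured -0.56 ± 0.25 in CD41pos and -0.17 ± 0.25 in CD41neg HSCs.

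The stalk of the large subunit recruits the translation factors, and none of its 5 members passed the test in either gate, with 3 at an unadjusted p below 0.05 in CD41pos and 1 in CD41neg HSCs. Their log2 fold changes in CD41pos HSCs were -0.67 ± 0.25 for Mrpl12, -0.61 ± 0.27 for Mrpl54, -0.56 ± 0.23 for Mrpl11, -0.34 ± 0.23 for Mrpl53 and -0.09 ± 0.13 for Mrpl10, the base of the stalk. The summed level of the 5 genes was 784 CPM in CD41pos WT 3, 719 CPM in CD41neg WT 4 and 372 to 507 CPM in the other 10 libraries. None of the 6 members at the exit of the peptide tunnel passed either, with 3 and 0 at an unadjusted p below 0.05. In CD41pos HSCs they were Mrpl23 at -0.61 ± 0.24, Mrpl22 at -0.59 ± 0.24, Mrpl17 at -0.45 ± 0.20, Mrpl24 at -0.38 ± 0.18, Mrpl45, the membrane anchor, at -0.14 ± 0.15, and Mrpl47 at 0.02 ± 0.20. Their median was -0.42, and in CD41neg HSCs -0.28.

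The 3 Mrps18 genes descend from 1 ancestral gene, and the 3 proteins take different places in the ribosome. Their fold changes in CD41pos HSCs were -0.34 ± 0.21 for Mrps18a, -0.39 ± 0.20 for Mrps18b and -0.46 ± 0.24 for Mrps18c, none past the test or at an unadjusted p below 0.05. DESeq2 called none of the stalk, tunnel exit or Mrps18 genes in either KO comparison. Members with a bacterial counterpart had medians of -0.35 (29 large subunit genes) and -0.45 (16 small subunit genes) in CD41pos HSCs. Those without one had -0.39 (19) and -0.35 (9). In CD41pos HSCs without the 2 high libraries the stalk median was -0.17, that of the tunnel exit -0.13 and that of the Mrps18 genes -0.07, with none called. In CD41neg HSCs 1 stalk gene was then called lower.

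Between the gates of WT mice the members did not share a direction. None was higher in CD41pos and 1, Mrpl50, was lower, while 2.72% of all genes were called higher and 2.87% lower, 5.59% in all. The median of members was 0.05, with 34 of 77 below 0 against 48.9% of all genes, and the median turned to -0.06 on log2(TPM + 1). Mrpl50 (chr4:49512596-49521093, minus strand) measured 77.4, 80.4 and 71.4 CPM in CD41pos WT 1, 3 and 4 and 99.96, 97.6 and 118.8 CPM in CD41neg WT 2, 3 and 4. The groups did not overlap, and CD41pos WT 3 was close to its group, unlike for most members. The log2 fold change was -0.46 ± 0.12 (edgeR adjusted p = 0.0372), and -0.41 (adjusted p = 0.0393) without the 2 high libraries. In KO mice Mrpl50 measured 83.4, 82.0 and 79.0 CPM in CD41pos and 97.0, 110.6 and 95.2 CPM in CD41neg, also without overlap, at -0.31 ± 0.12 (adjusted p = 0.228).

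Other low values between the WT gates were -0.44 ± 0.13 for Mrps27 (edgeR adjusted p = 0.0628) and -0.44 ± 0.19 for Mrps22. The highest were 0.67 ± 0.28 for Mrpl14, 0.54 ± 0.21 for Mrpl33 and 0.44 ± 0.26 for Mrps23. Mrpl14 measured 139.6 CPM in CD41pos WT 3 and 47.9 to 66.1 CPM in the other 5 WT libraries. The count of calls was 5 without CD41pos WT 3 and 1 without CD41neg WT 2, CD41neg WT 3 or CD41neg KO 2. It was 0 without any 1 of the other 8 libraries. With CD41pos WT 3 and CD41neg WT 4 left out, 3 members were lower and 1 higher. The fit without the 4 WT libraries that stood apart compares CD41pos WT 3 with CD41neg WT 3 alone. Its calls and median are listed below, and no conclusion is drawn from the calls.

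Between the gates of KO mice no member was called by edgeR or by DESeq2. Of all genes 1.56% were called higher and 1.23% lower, 2.79% in all. In edgeR 2 members had an unadjusted p below 0.05 (Mrpl50 and Mrpl52), against 2615 of the 19395 genes tested. This fit did not use the pairing of KO libraries by number that is described below. The median of members was -0.03, with 47 of 77 below 0 against 53.1% of all genes. For 16 members CD41pos lay below CD41neg in every library, and for 4 above (Mrpl33, Mrps23, Mrps33 and Mrpl24), against 14.1% and 15.7% of all genes. The lowest was Mrpl52 at -0.68 ± 0.29 (edgeR adjusted p = 0.317), with 54.5, 57.7 and 61.1 CPM in CD41pos KO and 79.7, 110.5 and 87.6 CPM in CD41neg KO. Mrps22 and Mrps18b both stood at -0.33. Mrpl33 at 0.28 ± 0.21, Mrps33 at 0.20 ± 0.20 and Mrpl24 at 0.16 ± 0.18 were highest. Without the 2 high WT libraries, which enter here only through the scaling and the shared spread, 2 were called lower, with a median of -0.01 and 44 below 0.

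Whether the KO difference depended on the gate was tested by the interaction. No member passed in edgeR and DESeq2 called none, while edgeR called 0% of all genes. None of the 77 had an unadjusted p below 0.05, against 1093 of the 19395 genes tested. The median of members was -0.09, with 53 of 77 below 0 against 52% of all genes. The lowest were Mrpl14 at -0.52 ± 0.39, Mrps36 at -0.39 ± 0.35 and Mrps6 at -0.38 ± 0.37, and the highest Mrpl47 at 0.34 ± 0.29, Mrps27 at 0.25 ± 0.18 and Mrps5 at 0.23 ± 0.22. The direction rested on single WT libraries. Without the 2 high libraries the median was 0.04 with 28 of 77 below 0, and without CD41pos WT 3 alone it was 0.22 with 3 of 77 below 0, both with no call. It was 0.03 with 31 below 0 without CD41neg WT 2. In the other direction, it was -0.26 with 68 below 0 without CD41neg WT 4, -0.22 with 65 without CD41pos WT 4 and -0.19 with 67 without CD41pos WT 1. It was -0.007 with 40 below 0 without CD41neg WT 3 and -0.02 with 44 below 0 without CD41neg KO 2. Without the 4 WT libraries that stood apart each WT group is 1 library. The calls and median of that fit are listed below, and no conclusion is drawn from the calls.

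Differences between libraries also went with the length of genes. In CD41pos WT 3 against CD41pos WT 1 and 4, genes of at least 5 CPM had a median difference of 0.69 (log2) for GENCODE exon lengths under 1000 bases and -0.33 for 4000 bases and over. In KO against WT of CD41pos HSCs the same bins had -0.50 and 0.23, and in CD41neg HSCs -0.22 and 0.14. Between the KO gates they had -0.01 and 0.01. Members are short, with a median exon length of 2255 bases against 3926 for all tested genes with a length. In CD41pos HSCs the medians of members and of all genes were -0.59 and -0.50 in the shortest bin (9 members), -0.47 and -0.43 from 1000 to 2000 bases (22), -0.31 and -0.15 from 2000 to 4000 bases (24), and -0.27 and 0.23 in the longest bin (22). The part of length in the members' difference was not tested further.

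**Figure D5:**
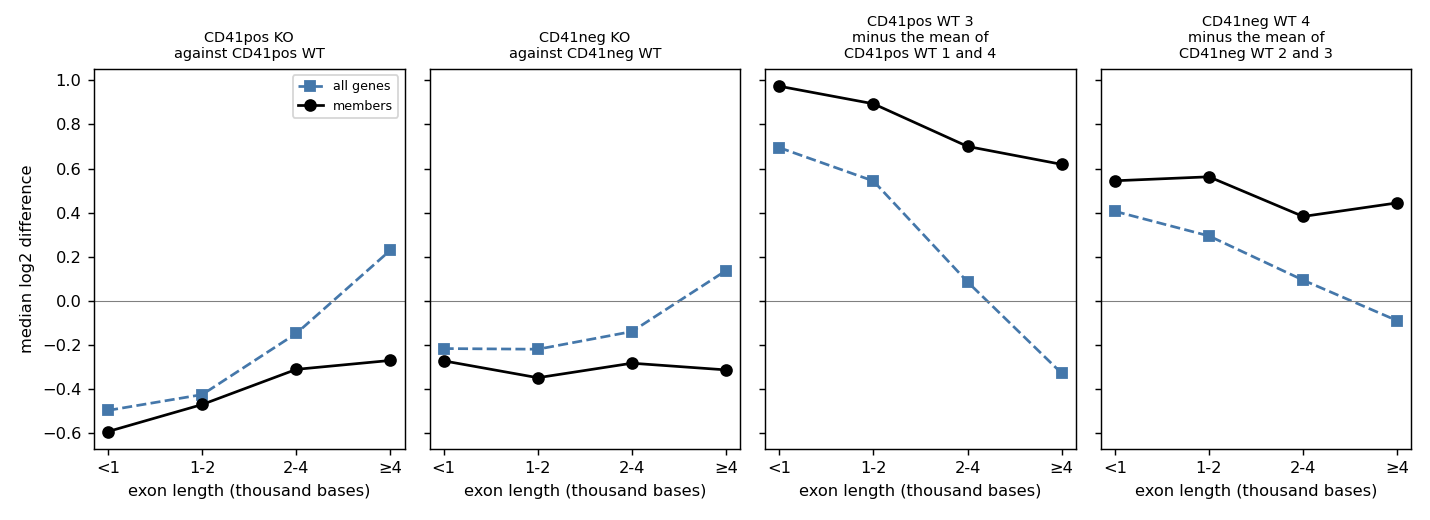
Median log2 difference by GENCODE exon length, for all genes of at least 5 CPM (blue squares, dashed) and for members (black circles, solid; 9, 22, 24 and 22 genes from the shortest bin to the longest). In CD41pos WT 3 all genes go from 0.69 in the shortest bin to -0.33 in the longest, and members from 0.97 to 0.62.

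Genes that work with the mitochondrial ribosome did not all follow its proteins. Of 5 ribosomal proteins under other symbols, Ptcd3, a pentatricopeptide protein of the small subunit, rose in CD41pos KO HSCs at 0.60 ± 0.15 (edgeR adjusted p = 0.0213) and the other 4 did not pass. Ptcd3 measured 84.1, 61.6 and 96.4 CPM in CD41pos WT 1, 3 and 4 and 125.5, 126.0 and 116.5 CPM in KO, and it was lowest in the library where most members were highest. It was also lower in CD41pos than in CD41neg HSCs of WT mice, at -0.83 ± 0.15 (adjusted p = 0.0103).

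Of 15 mitochondrial translation factors 3 rose and 1 fell in CD41pos KO HSCs. The mRNA-stabilising protein Lrpprc rose by 0.93 ± 0.21 on the log2 scale (edgeR adjusted p = 0.0134), and the elongation factors Gfm1 and Gfm2 by 0.50 ± 0.14 and 0.40 ± 0.12. Oxa1l, which inserts new proteins into the inner membrane, fell at -0.49 ± 0.15 (adjusted p = 0.0437). Among the CD41pos WT libraries, WT 3 was lowest for the 3 genes that rose and highest for Oxa1l. Lrpprc measured 49.4 CPM there, against 99.95 and 94.9 CPM in WT 1 and 4 and 147 to 164 CPM in KO. In CD41neg HSCs none of the 15 passed in edgeR, 4 had an unadjusted p below 0.05 and DESeq2 called 1. With the 2 high libraries left out, 4 rose and 1 fell in CD41pos, and 1 fell in CD41neg HSCs.

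Of 28 genes for assembly and rRNA modification, Wbscr16 (Rcc1l) and the methyltransferase gene Mrm1 fell in both gates. Wbscr16 measured 76.1 to 99.7 CPM in CD41pos WT and 55.1 to 55.4 CPM in CD41pos KO, and 104 to 148 CPM in CD41neg WT against 55.4 to 62.8 CPM in CD41neg KO. Its log2 fold changes were -0.66 ± 0.15 (edgeR adjusted p = 0.0123) and -1.08 ± 0.15 (adjusted p = 0.00313). Mrm1 stood at -0.43 ± 0.13 and -0.48 ± 0.13. Fastkd2, an RNA-binding assembly factor, rose at 0.52 ± 0.16 in CD41pos HSCs. It measured 34.8 CPM in CD41pos WT 3 against 49.8 and 54.7 CPM in CD41pos WT 1 and 4. Without the 2 high libraries 1 rose and 2 fell in CD41pos, and 2 fell in CD41neg HSCs.

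Of 14 genes for mitochondrial transcription, replication and RNA processing 3 rose (Polg, Mtpap and Pnpt1) and 2 fell (Ssbp1 and Hsd17b10) in CD41pos KO HSCs. Among the CD41pos WT libraries, WT 3 was lowest for the 3 that rose and highest for the 2 that fell. Pnpt1 measured 35.4 CPM there against 72.5 and 74.0 CPM in WT 1 and 4. In CD41neg HSCs Polrmt, the mitochondrial RNA polymerase, fell at -0.77 ± 0.14 (edgeR adjusted p = 0.0110). Polrmt, Polg and Elac2 were lower in CD41pos than in CD41neg HSCs of WT mice. The 13 measured mRNAs of the mitochondrial genome had medians of -0.28 in CD41pos and -0.39 in CD41neg HSCs, with 0 and 2 called lower (COX1 and ATP8). In CD41pos HSCs 2 of the 13 had an unadjusted p below 0.05 and DESeq2 called none. COX1 measured 1136, 1089 and 1247 CPM in CD41neg WT 2, 3 and 4 and 834, 889 and 847 CPM in CD41neg KO 1, 2 and 3. Without the 2 high libraries 8 of the 13 were lower in CD41neg KO and none in CD41pos KO, where the median was 0.02.

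Of 11 regulators of mitochondrial gene expression, Gabpa rose in both gates, at 0.61 ± 0.10 in CD41pos (edgeR adjusted p = 0.00444) and at 0.51 ± 0.10 in CD41neg (adjusted p = 0.0153). Gabpa measured 103 to 109 CPM in CD41pos WT and 151 to 171 CPM in CD41pos KO, and 90.9 to 108 CPM against 140 to 148 CPM in CD41neg HSCs. Nrf1, the gene of nuclear respiratory factor, rose at 0.43 ± 0.13 (adjusted p = 0.0355) and Esrra, an orphan nuclear receptor, fell at -0.72 ± 0.22 (adjusted p = 0.0467) in CD41pos HSCs. Of these regulators 3 rose and none fell in CD41pos HSCs without the 2 high libraries, and 3 rose and 1 fell in CD41neg HSCs. Pprc1, a coactivator, was lower in CD41pos than in CD41neg HSCs of WT mice, at -0.84 ± 0.19 (adjusted p = 0.0237).

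Cytosolic ribosomal protein genes and genes of the respiratory chain also had medians below 0. In CD41pos HSCs 1 of 84 cytosolic ribosomal protein genes fell, with a median of -0.54, and 4 of 80 respiratory chain and ATP synthase genes fell and 1 rose, with a median of -0.50. In CD41neg HSCs the medians were -0.24 and -0.29. Without the 2 high libraries these medians were -0.14 and -0.11 in CD41pos and -0.03 and -0.09 in CD41neg HSCs.

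Some markers of other marrow cells also differed between the genotypes. The summed level of 5 basophil and mast cell markers was 227 to 604 CPM in CD41pos WT and 112 to 119 CPM in CD41pos KO, and 99.2 to 510 CPM against 48.0 to 103 CPM in CD41neg HSCs. Of these 5 genes 3 fell in both gates (Prss34, Mcpt8 and Fcer1a). The other 2 lay on the other side and did not pass, Cpa3 at 1.05 ± 0.39 and Ms4a2 at 1.03 ± 0.36 in CD41pos HSCs, where all KO libraries were above all WT libraries, and at 1.03 ± 0.39 and 0.49 ± 0.36 in CD41neg HSCs. Of 9 stroma and endothelium markers 5 fell in CD41pos and 7 in CD41neg KO HSCs, led by Cxcl12. Their sums were 200.5 to 388 against 40.6 to 61.2 CPM and 206 to 880 against 27.9 to 37.5 CPM. Kdr lay on the other side in CD41pos HSCs and did not pass, with 2.77 to 12.8 CPM in WT and 14.7 to 28.5 CPM in KO. In CD41neg HSCs all 9 had a fold change below 0. Plasma and B cell markers (6 genes) summed to 114 to 627 against 28.0 to 69.4 CPM in CD41pos and 323 to 3154 against 83.6 to 170.5 CPM in CD41neg HSCs. Of these, Jchain fell in both gates and Mzb1 in CD41neg HSCs, while 1 of the 6 genes had a fold change above 0 in each gate. Of 6 T and NK cell markers, Nkg7 made up nearly all of the sum and fell in CD41pos HSCs, from 224 to 291 CPM in WT to 74.6 to 130.1 CPM in KO, while Cd3e was at 1.57 CPM or less in every CD41pos library. No gene of these 4 lists was at 0 counts in any library. Erythroid markers (4 genes) had a fold change above 0 for all 4 genes in both gates, with medians of 0.36 and 0.49 and none called, by DESeq2 either. Their sum was 61.7, 528 and 267 CPM in CD41pos WT 1, 3 and 4. Of mature myeloid markers (6 genes), Ly6g fell in CD41pos HSCs. It measured only 0.124, 0.136 and 0.521 CPM in CD41pos WT 1, 3 and 4 and was at 0 counts in CD41pos KO 1 and 2. All 6 markers had a fold change below 0 in both gates. Their sums were 39.8 to 218 CPM in CD41pos WT and 31.8 to 55.1 CPM in CD41pos KO. Calls without the 2 high libraries were 3, 5, 1, 1, 1 and 0 lower for basophil and mast cell, stroma, plasma and B cell, T and NK cell, myeloid and erythroid markers in CD41pos HSCs. Among the CD41pos WT libraries, WT 3, the highest for the mitochondrial ribosomal genes, had the lowest sum of basophil and mast cell, stroma and plasma and B cell markers and the highest sum of T and NK cell and erythroid markers. The part of such cells in the members' difference was not tested.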

How the data were processed

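Sorted HSC RNA of 12 libraries was made into SMART-Seq v4 libraries, which do not mark the strand, per the labels' protocols. FastQC 0.11.7, cutadapt 1.9.1, STAR 2.6.1e, featureCounts 1.6.2 and the mm10 build are named in the submitters' processing notes; for the annotation release these sources used here name nothing. Whole-number counts per gene, deposited by the authors, entered every main test. A TPM table of the same rows, also deposited, gave levels and an alternative unit. Among the counts, 27 gene names had been turned into dates and were taken from the TPM table.

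Counts were filtered with filterByExpr and scaled by TMM, and 1 quasi-likelihood fit of 4 group means over 12 libraries (edgeR 4.0.16, R 4.3.3) gave 5 two-sided comparisons, adjusted by Benjamini-Hochberg over 19395 genes at a threshold of 0.05. The SE was derived from the F statistic. With 3 against 3 an exact permutation test of a single value cannot go below 0.1, so none was used. The script was tested on simulated data with changes of known size. A first bar over all changed genes failed, because the smaller changes were mostly not called at 3 against 3. It was replaced by a bar on the larger changes, the fold sizes and the false calls. A member that was not called may thus still differ. As alternatives, fits were made with DESeq2 1.42.0, with its scaling factors, with no low-count filter, on only the groups compared, by limma-trend (limma 3.58.1) on log2(TPM + 1) and log2(TPM + 0.1), with blocks, with a term for 4 WT libraries and without single or several libraries.

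KO numbers pair libraries across gates: deviations from group means over 11386 genes correlated at 0.47, 0.63 and 0.47 between same-numbered libraries. WT 3 gave 0.15 and WT 4 -0.47, while CD41pos WT 4 and CD41neg WT 2 gave 0.565. The WT gates do not hold the same numbers, so these values cannot settle whether WT numbers pair. No replicate pair had identical counts, and each differed beyond sampling noise.

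The members and lists were chosen with earlier results of these data known. Named genes were members called in a comparison, the 3 highest and 3 lowest fold changes per comparison among members of at least 10 CPM, the 5 highest and 5 lowest by TPM, and the 3 of widest spread. Stalk, tunnel exit and Mrps18 members, up to 4 called genes of each other list, Runx1 and Itga2b were named too. Nr4a1 was chosen after its values were seen, as was the use of GENCODE lengths for the length comparison. Exon lengths, positions and overlaps are from GENCODE vM21 (GRCm38) and promoter windows from RefSeq (GRCm38.p6).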

Additional observations from a re-analysis of the deposited data

How the results depend on the processing

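Members called, in the order CD41pos KO against WT, CD41neg KO against WT, CD41pos against CD41neg in WT and the same in KO, were 5, 1, 1 and 0. DESeq2 gave 9, 5, 2 and 0, fits of only the groups compared 1, 2, 0 and 2, log2(TPM + 1) 3, 3, 8 and 0, and log2(TPM + 0.1) 2, 3 and 7 for the first 3. A term for the 4 WT libraries that stood apart in Nr4a1 gave 19 and 4 for the first pair, and fits without them 67, 8, 42 and 1, with 36 for the interaction and medians of -0.74, 0.60 (WT gates) and -0.56 (interaction). Without CD41pos WT 3 and CD41neg WT 4, an alternative added after the data were seen, the counts were 5, 8, 4 and 2, and the CD41pos median was -0.091. With no low-count filter the WT gates gave 0. The fits without the 4 libraries that stood apart in Nr4a1 leave 1 library in each WT group. No conclusion is drawn from their counts of calls that involve a WT group.

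With the replicate number as a replicate block both KO comparisons and the WT gates gave 0 calls, and with the animal label as the block the WT gates gave 0. WT and KO libraries share only a number. Leaving out 1 library at a time gave 0 to 19, 0 to 12 and 0 to 5 calls for the first 3 and 0 for the KO gates and the interaction, with medians of -0.52 to -0.088, -0.40 to -0.14, -0.23 to 0.26, -0.08 to 0.02 and, for the interaction, -0.26 to 0.22.

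None of the 6 called genes changed direction, and Mrpl2 stayed called in CD41pos HSCs in 19 of 22 alternatives, Mrps34 in 15, Mrps26 in 11, Mrpl4 in 9 and Mrpl44 in 5. Mrpl2 in CD41neg HSCs was called in 14 of 22 and Mrpl50 between WT gates in 9 of 23. Values of genes not called turned below 0 with the term for the 4 libraries, at -0.10 for Mrpl47 (CD41pos), -0.27 for Mrpl32 and -0.073 for Mrps25 (CD41neg). Without those libraries they did so at -0.26 for Mrpl47 in CD41pos, and at -0.026 for Mrps5 and -0.098 for Mrpl47 in the interaction. With 1 library left out Mrpl47 ranged from -0.10 to 0.26 in CD41pos, Mrpl32 from -0.10 to 0.17 and Mrpl1 from -0.11 to 0.20 in CD41neg, Mrps23 from -0.038 to 0.63 between WT gates, and Mrps6 from -0.59 to 0.084 in the interaction. The causes were not tested. On log2(TPM + 0.1) the median of all genes moved to 0.11 and 0.12 in the KO comparisons, and those of members stayed below 0 at -0.14 and -0.13.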
